A study of Mus musculus with 8 samples.

Results

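Open chromatin was compared between the sorted populations named T1 and T2 of long-term haematopoietic stem cells (HSC), with both genotypes pooled. The members were chosen by the sample titles alone: 4 libraries carry T1 and 4 carry T2, which together are all 8 libraries of the series. The cells came from the bone marrow of Vav1-cre iMOS Bcl11a mice of the genotypes MUT or WT, with 2 libraries for each genotype and population. Every group thus shares the Vav1-cre driver, which acts in blood-forming cells, and an iMOS Bcl11a allele. The age is given as 2-3 months among the sample characteristics and as 3 months in the design text. The design text asks about the role of Bcl11a within HSC and about effects of its overexpression on neighbouring wild-type HSC. The sources used here do not give the sorting criterion behind the names T1 and T2, or say in which population a transgene is active. The labels number replicates 1 and 2 without saying that they are separate animals, or whether T1 and T2 cells of a genotype shared animals. P-values below thus reflect the spread among these libraries alone, which may be technical.

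HSC are the rare marrow cells that renew themselves and give rise to all blood lineages. In ATAC-seq a transposase inserts adapters into accessible DNA, so fragments pile up at active promoters and enhancers. BCL11A is a zinc finger repressor known for silencing fetal globin in red cells and for its need in B cell development, and it is also expressed in stem and progenitor cells. A peak is a stretch where the pileup exceeds its local background. Its fold enrichment, used below, is the authors' own ratio of the summit to that background, with a small constant added to both. The constant lowers the ratio most where the background is low, as in shallow libraries. A missing peak means only that the signal did not reach the calling threshold in that library.

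The T1 libraries held 62674 to 72699 peaks on chromosomes 1 to 19 and the T2 libraries 60944 to 73328. Relative depth was read from the genome-wide background of each list, which ran from 2.04 to 3.38 fragments per position in T1 and from 1.89 to 3.21 in T2. The shallowest libraries were MUT T1 replicate 2 and WT T2 replicate 2, so the deeper population was T2 in MUT (mean background 3.16 against 2.71) and T1 in WT (3.27 against 2.17). Pooled, the background was 2.99 ± 0.638 (SD, n = 4) in T1 and 2.66 ± 0.615 (SD, n = 4) in T2 (two-sided exact permutation test, p = 0.457). None of the 7 library summaries passed the exact test between T1 and T2 (Benjamini-Hochberg adjusted p = 0.657 for each, smallest possible raw p 0.0286). Peaks covered 47.2 ± 6.22 Mb (SD, n = 4) in T1 and 44.4 ± 5.42 Mb (SD, n = 4) in T2. The HSC label was checked against marker genes: 33 of 35 HSC identity genes on these chromosomes had a region within 1 kb of a gene end in all 8 libraries. The corresponding counts were 12 of 25 for granulocyte and monocyte genes, 12 of 24 for B cell genes, 12 of 25 for T and NK cell genes and 4 of 19 for mast cell, eosinophil and basophil genes. They were 15 of 23 for erythroid, 21 of 24 for megakaryocyte and 17 of 25 for stromal and endothelial genes. Among the other lists, counts were 25 of 25 for TGF-beta, 24 of 25 for AP-1 and 23 of 24 for interferon genes. Self-renewal genes had 24 of 25, HSC aging genes 21 of 24 and cell cycle genes 21 of 25. Inflammation genes had 19 of 25 and BCL11A partners 17 of 24. A high count was thus not particular to HSC identity genes, and the share over all genes is not given here. Elane, S100a8 and Ly6g of granulocytes, Rag1 and Rag2 of lymphocytes, Cd3e and Gzmb of T and NK cells and Cdh5 of endothelium had no such region in any library. The distance was taken from the centre of a region, and the broadly used genes Mcl1 and Dnmt3a also had none, so a gene with none is not thereby shown to be inactive. No gene of any marker list had a region at its ends in all 4 libraries of one population and none of the other.

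Very few loci followed the sorted label in both genotypes. Merging overlapping peaks gave 88724 regions: 48684 (54.9%) had a peak in every one of the 8 libraries and 40040 in 1 to 7. Of those 40040 regions, 45 (0.112%) were called in all 4 T1 and no T2 libraries, and 24 (0.0599%) in all 4 T2 and no T1 libraries. They made up 0.0507% and 0.0271% of all 88724 regions, and 1.11% and 0.59% of the 4066 regions called in exactly 4 libraries. By the same rule for genotype, 198 regions (0.223% of all regions) were MUT-only and 53 (0.0597%) were WT-only. In all, 4 of 8 libraries can be chosen in 70 ways, and each of these sets is a single one of them. The difference between the count for population and that for genotype was not tested.

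With equal numbers of peaks taken from each list, 31 regions were on the T1 side and 36 on the T2 side, so the share on the T1 side fell from 65.2% to 46.3%. With windows around the summits in place of whole peaks, it was 55.9% (62 and 49 regions). Other settings left it near the main value. It was 65.3% where peaks had to cover at least 25% of a region, and 65.7% with chromosome X included. With a −log10 q-value of 5 or more it was 65.7%, and 66% where only the called side had to reach that. Leaving out 1 library at a time loosens the rule and gave 71 to 306 regions on the T1 side and 46 to 103 on the T2 side. Without the 2 shallowest libraries, which leaves 3 against 3, the counts were 373 and 161.

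**Figure D1:**
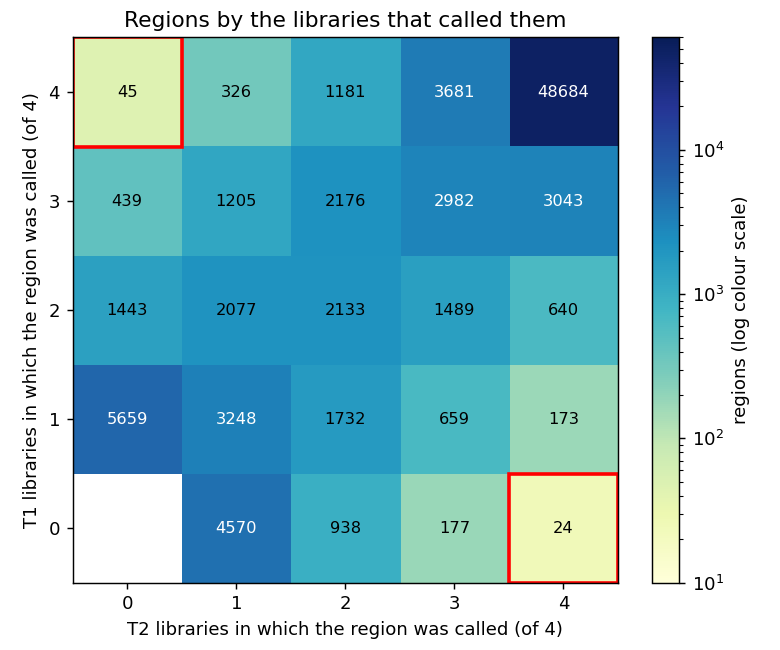
Number of merged regions by how many of the 4 T1 libraries (vertical axis) and how many of the 4 T2 libraries (horizontal axis) called them, with a log colour scale. The corner cells hold the 45 T1-only and 24 T2-only regions, beside 48684 called in all 8.

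Within each genotype the one-sided regions were many more, and they leaned in opposite directions. In MUT, 551 regions were called in both T1 and neither T2 library and 1541 the other way round, a T1 share of 26.34%. In WT the counts were 3453 and 562, a T1 share of 86%. The T1-only regions were thus 8.167% of the MUT T1-side regions and 1.303% of those in WT. The T2-only regions were 1.557% of the MUT T2-side regions and 4.27% of those in WT. More regions took opposite sides than the same side: 157 were on the T2 side in MUT and the T1 side in WT, and 10 were the reverse, which makes 167 of the 236 regions that were one-sided in both genotypes. In each genotype the larger side was the population with the higher mean background. The part of depth in these counts was not tested.

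The 45 T1-only regions lay on 18 chromosomes and the 24 T2-only regions on 15, with at most 6 and 3 on one chromosome. Both sets were narrow, with median widths of 491 and 476.5 bp, against 488 bp in the other regions called in exactly 4 libraries and 925 bp in those called in all 8. Only 3 of 45 (6.667%) and 3 of 24 (12.5%) lay within 1 kb of a gene end, against 4.779% of the other regions called in 4 and 25.05% of those called in all 8. Inside gene spans lay 23 of the T1-only regions (51.11%) and 12 of the T2-only regions (50%), against 55.67% of the other regions called in 4. No protein-coding gene lay within 50 kb of 7 T1-only regions and 1 T2-only region. Genes here are RefSeq's protein-coding genes, and 2 of those 7 regions were centred 2503 and 2165 bp from another RefSeq start site. The median distance to the nearest region called in all 8 libraries was 10274 bp for the T1-only set and 6734 bp for the T2-only set.

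Most of these peaks were weak. The lowest fold enrichment over the 4 libraries that called a region ran from 2.44 to 6.59 in the T1-only set (median 4.01) and from 2.18 to 6.17 in the T2-only set (median 3.79). At the genome-wide background, the weakest called peak of a library had a fold enrichment of 3.19 to 3.80. In 27 of 45 T1-only and 15 of 24 T2-only regions every calling library lay above the highest such value of the other population. All 4 calling libraries were at the genome-wide background in 17 T1-only and 6 T2-only regions. Over a higher local background, lower ratios can be called. With equal peak numbers 9 of the 45 and 6 of the 24 remained on their side.

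The T1-only set was led by regions at Cd36, Riok2 and Cd109. The region on chromosome 5, 17765969 to 17766504, lies outside genes, 15454 bp from the end of Cd36, a scavenger receptor and fatty acid transporter. All distances here are from the centre of a region. Its fold enrichments were 8.90 and 6.59 in MUT T1 and 9.67 and 8.62 in WT T1 (8.44 ± 1.31, SD, n = 4), on summit pileups of 38, 19, 40 and 36 fragments. No T2 library had a peak there, and the nearest region called in all 8 was 55396 bp away.

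Riok2 encodes a kinase needed to mature the small ribosomal subunit. The region inside it (chromosome 17, 17394331 to 17394727), 370 bp from a gene end, had fold enrichments of 6.12 and 5.94 in MUT T1 and 8.10 and 7.03 in WT T1 (6.80 ± 0.991, SD, n = 4). Cd109 encodes a membrane-anchored protein that binds TGF-beta receptors. The region inside it (chromosome 9, 78700827 to 78701143) had values of 7.53 and 5.93 in MUT T1 and 9.67 and 7.69 in WT T1 (7.70 ± 1.53, SD, n = 4). In all 3 regions MUT T1 replicate 2, the shallower library, had the lowest fold enrichment and WT T1 replicate 1 the highest.

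The other 7 of the 10 strongest T1-only regions had lowest values between 4.93 and 5.70. A region with no coding gene within 50 kb (chromosome 3, 64842129 to 64842705) had fold enrichments of 5.70, 6.26, 7.07 and 8.39 in MUT T1 replicates 1 and 2 and WT T1 replicates 1 and 2. In the same order, the region 3113 bp from Zbtb25, a zinc finger gene, had 5.53, 6.11, 6.89 and 7.59. That near Abhd2, which encodes a lipid hydrolase, had 5.70, 5.27, 5.19 and 6.76. The remaining 4 were inside Vps53 (4.95 to 8.16), a subunit of an endosome-to-Golgi tethering complex, inside Tex2 (4.94 to 6.18), near Zfp930 (4.93 to 6.32), a zinc finger gene, and at an intergenic site on chromosome 4 (4.94 to 6.60). In all 10 the T2 lists held no peak. Under summit windows, a stricter q-value and equal peak numbers alike, 9 T1-only regions kept their place: those at Cd36, Riok2, Cd109, Zbtb25, Abhd2, Tex2, Zfp930 and Deptor, an mTOR inhibitor, and the intergenic one on chromosome 3. Deptor was named after its values were seen (fold enrichments 3.58 to 5.87).

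The T2-only set was led by a region 2689 bp from Capn1, a calcium-dependent protease (chromosome 19, 6018114 to 6018914). Its fold enrichments were 6.22 and 6.17 in MUT T2 and 6.89 and 8.14 in WT T2 (6.86 ± 0.916, SD, n = 4), on pileups of 91, 81, 75 and 68 fragments, the tallest among the 10 strongest T2-only regions. No T1 library had a peak there. The region inside Paxbp1, whose product binds the PAX3 and PAX7 factors (chromosome 16, 91030659 to 91031141), had 6.17 and 5.61 in MUT T2 and 5.51 and 7.25 in WT T2 (6.14 ± 0.801, SD, n = 4). That near Lmx1b, a homeodomain factor of limb and kidney (chromosome 2, 33669490 to 33670080), had 5.42, 5.13, 5.35 and 5.55 (5.37 ± 0.177, SD, n = 4), the closest agreement of the 3.

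The other 7 of the 10 strongest T2-only regions had lowest values between 4.01 and 4.98. They lay inside Csnk1g1, a casein kinase (4.98 to 6.34), Sp100, a nuclear body protein (4.63 to 5.93), Ctso, a cathepsin (4.22 to 5.61), and Rps6ka5, a histone kinase (4.01 to 5.53). Outside genes they lay near Spock2, a proteoglycan gene (4.51 to 6.91), Mterf1b, a mitochondrial transcription factor gene (4.30 to 5.74), and Tmem158 (4.18 to 6.08). None of these 7 kept 4 calls against 0 with equal peak numbers. Under the same 3 settings 6 T2-only regions kept their place: those at Capn1, Paxbp1, Lmx1b, Spire1, Arf6 and H2ac10. The last 3 of these were named after their values were seen.

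**Figure D2:**
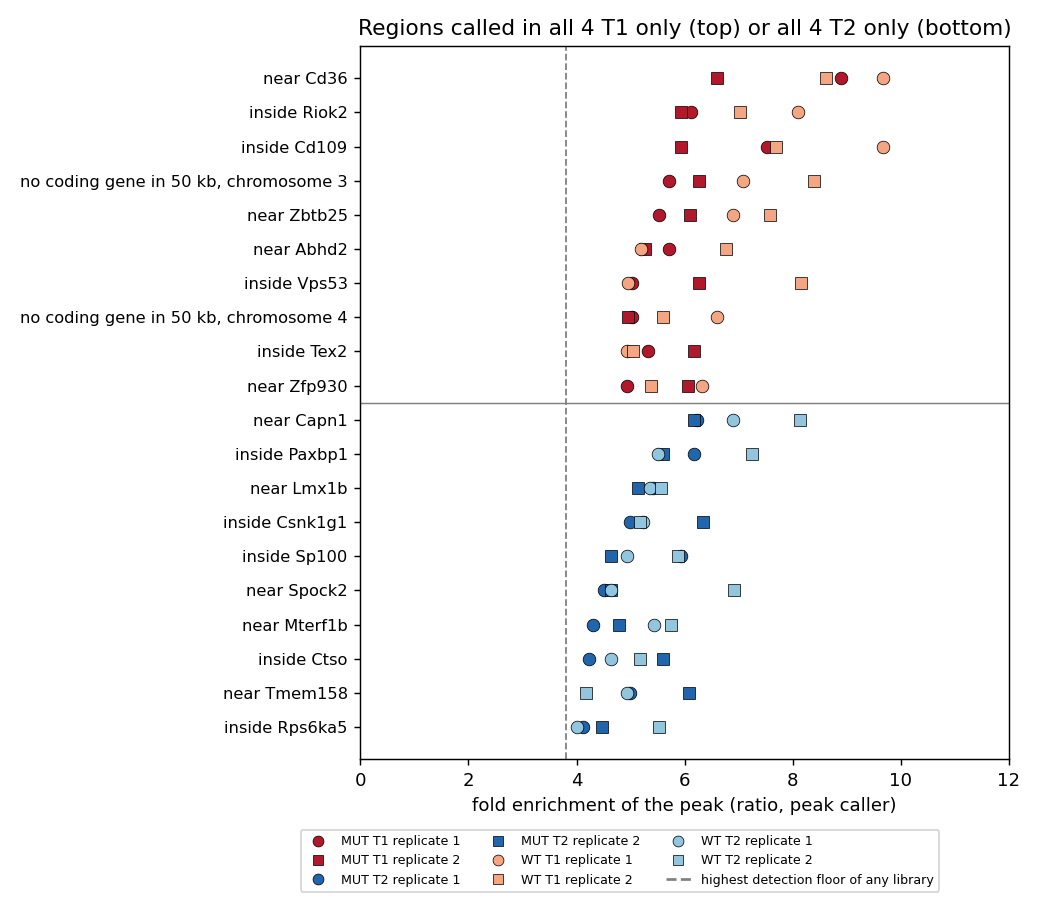
Fold enrichment (horizontal axis, the authors' ratio) in each calling library at the 10 strongest T1-only and 10 strongest T2-only regions, 1 point per library. Points run from 4.93 to 9.67 in the T1-only rows and from 4.01 to 8.14 in the T2-only rows. The population that is not drawn had no peak. The dashed line marks 3.80, the highest of the 8 libraries' weakest fold enrichments at genome-wide background.

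Of the 69 one-sided regions, 2 were assigned to a gene of the 16 gene lists. Mecom encodes a transcription factor required for HSC maintenance. The T2-only region inside it (chromosome 3, 30498451 to 30498918), 11075 bp from a gene end, had fold enrichments of 3.06 and 3.46 in MUT T2 and 4.25 and 4.53 in WT T2 (3.83 ± 0.685, SD, n = 4). Alox15 encodes a lipoxygenase of eosinophils and macrophages. The T1-only region inside it (chromosome 11, 70376107 to 70376440) had 3.83 and 4.26 in MUT T1 and 3.83 and 3.47 in WT T1 (3.85 ± 0.325, SD, n = 4). The lowest value of each lay below the weakest peak called at genome-wide background in the shallowest library of the other population. In every calling library the local background at both regions was above the genome-wide one, where lower ratios can be called. The comparison thus does not show that either lay below detection in the other population. Neither kept 4 calls against 0 with equal peak numbers. Both did with summit windows, and only the Mecom region did with the stricter q-value.

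The one-sided regions that overlapped one of the promoter windows available here are shown with the sequence of the 250 bases upstream of the start site. Grap2, Mterf1b and H2ac10 were picked for that overlap after their values were seen. Fgd5, a promoter open in all 8 libraries, came from the regions named below whose ranks did not overlap (T2 higher). Regions at Mitf and Tlr2 (T1 higher) overlapped a window as well, and those windows are not shown. The available windows did not cover every gene. No start site was available for the one-sided regions at Spire1 and Slc26a2, or for the regions at Pdgfrb and Egr1 named below. The Spire1 region (T2-only) lay 484 bp from a gene end. Near Deptor the closest available start site was 1.1339e+06 bp away, against 17041 bp for the gene end. Further overlaps with promoters could thus have been missed. Sequences are RefSeq's for GRCm38.p6, the build named mm10, 5′ to 3′ on the plus strand, with motif matches in capitals. The windows are chr15:80623233-80623482 for Grap2, chr5:4192117-4192366 for Mterf1b, chr13:23533625-23533874 for H2ac10 and chr6:91978715-91978964 for Fgd5.
Grap2: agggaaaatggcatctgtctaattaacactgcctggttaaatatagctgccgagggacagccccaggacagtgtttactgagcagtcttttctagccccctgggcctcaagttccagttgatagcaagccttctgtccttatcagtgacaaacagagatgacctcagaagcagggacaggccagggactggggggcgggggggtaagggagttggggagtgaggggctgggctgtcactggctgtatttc
Mterf1b: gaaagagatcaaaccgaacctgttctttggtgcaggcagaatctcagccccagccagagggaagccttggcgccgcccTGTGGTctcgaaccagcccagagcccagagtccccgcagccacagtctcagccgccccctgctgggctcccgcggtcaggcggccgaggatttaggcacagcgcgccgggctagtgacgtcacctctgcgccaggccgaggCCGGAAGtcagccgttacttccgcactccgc
H2ac10: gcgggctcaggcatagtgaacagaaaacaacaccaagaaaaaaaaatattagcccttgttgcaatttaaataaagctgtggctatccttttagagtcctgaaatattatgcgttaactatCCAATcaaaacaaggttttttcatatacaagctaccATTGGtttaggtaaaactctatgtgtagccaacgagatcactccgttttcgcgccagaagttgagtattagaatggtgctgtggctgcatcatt
Fgd5: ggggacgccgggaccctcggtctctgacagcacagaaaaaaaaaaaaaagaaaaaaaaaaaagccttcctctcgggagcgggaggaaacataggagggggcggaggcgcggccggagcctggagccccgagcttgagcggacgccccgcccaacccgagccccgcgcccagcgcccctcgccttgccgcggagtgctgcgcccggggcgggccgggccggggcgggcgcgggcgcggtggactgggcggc

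Motifs were searched on both strands as the letters CCGGAAG (ETS factors), TGANTCA (AP-1), AGATAA (for GATA factors), TGTGGT (RUNX factors), CCAAT (the CCAAT box), TATAAA (the TATA box) and TGACCA (the BCL11A motif). Mterf1b held TGTGGT at base 79 and CCGGAAG at base 220, and H2ac10 held CCAAT at base 121 and its reverse complement at base 157, counted from the 5′ end of the window. Of 32851 RefSeq promoter windows of this length, 14% held TGTGGT, 6.91% held CCGGAAG and 33.8% held CCAAT. The letters AGATAA were found in 9.99%, TGANTCA in 6.75%, TATAAA in 12.4% and TGACCA in 11.4%. The Grap2 and Fgd5 windows held none of these 7 motifs. GC content was 54.4% at Grap2, 66.4% at Mterf1b, 38.4% at H2ac10 and 71.6% at Fgd5, around a median of 52.4% over all windows.

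Grap2 encodes an adaptor of T cell receptor signalling, and the T1-only region centred 7 bp from its start site (chromosome 15, 80623293 to 80623687) overlapped the window by 190 bp. Its fold enrichments were 3.46 and 4.67 in MUT T1 and 3.56 and 3.54 in WT T1, on pileups of 20 to 24 fragments. H2ac10 is a histone H2A gene, and the T2-only region centred 9 bp from its start (chromosome 13, 23533704 to 23534029) had 2.80 and 3.02 in MUT T2 and 2.81 and 3.42 in WT T2. Its pileups were 90, 94, 71 and 69 fragments over a high local background. The T2-only region at Mterf1b (chromosome 5, 4191921 to 4192261) had 4.30, 4.79, 5.44 and 5.74. H2ac10 and Mterf1b have near-identical relatives, as do Zfp930, Sp100 and Oas1e, so reads there can be placed at the wrong copy.

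No region called in all 8 libraries passed the test between T1 and T2. Fold enrichment was turned into a percentile rank from 0 to 100 within each library over the 48684 shared regions, because ratios from separately called lists compare only as ranks. limma with genotype as a term called 0 regions (0%) at a Benjamini-Hochberg adjusted p under 0.05, and the smallest adjusted p was 0.966. At an unadjusted p under 0.05 there were 2412 regions (4.95%), 1221 higher in T1 and 1191 higher in T2. The interaction of population with genotype called 0 regions (smallest limma adjusted p 0.680), with 3538 (7.27%) at an unadjusted p under 0.05. Between genotypes limma also called 0 regions (smallest adjusted p 0.168), with 2930 (6.02%) at an unadjusted p under 0.05. In simulated data with 200 regions shifted by 1 on the log2 scale, the same fit recovered 68% of them, with 6 unchanged regions called. With a shift of 2 it recovered 71.5%, with 5 unchanged regions called. The simulated libraries had independent noise of the spread within groups, and no genotype, interaction or depth differences. These shares thus do not show how often such shifts would be found in the real libraries.

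The T1 against T2 difference had a median size of 3.97 percentile points, and 712 regions differed by more than 20 points. The sign was the same in both genotypes at 22713 regions (46.7%), of which 11277 were higher in T1 and 11435 higher in T2. Across the 48684 regions, which share their libraries and are not independent, the MUT and WT differences had a correlation of -0.0836. All 4 T1 ranks lay above all 4 T2 ranks at 665 regions (1.37%), and the reverse held at 621 (1.28%). The same count between genotypes was 848 (1.74%) with MUT higher and 757 (1.55%) with WT higher. The 8 libraries can be split into 4 and 4 in 70 ways, counting direction, and each count here covers a single one. Spearman correlations between libraries averaged 0.868 over the 8 pairs of one population across genotypes and 0.873 over the 8 pairs that shared neither. They averaged 0.880 within a group.

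**Figure D3:**
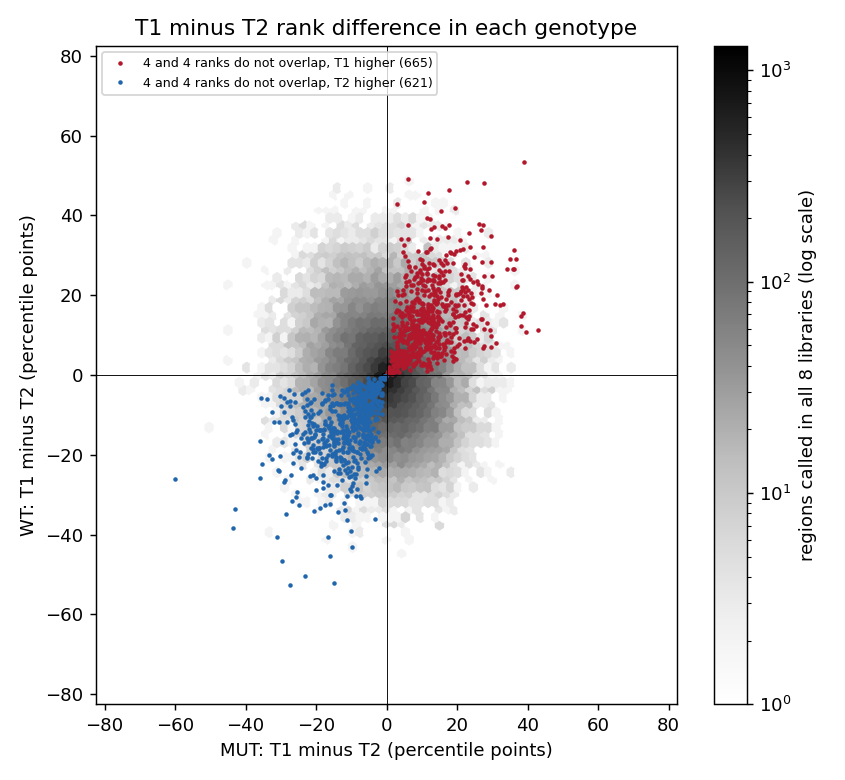
T1 minus T2 difference in percentile rank in MUT (horizontal axis) and in WT (vertical axis), in percentile points, for the regions called in all 8 libraries (grey, log scale), with the 665 (red) and 621 (blue) without overlap as points. The cloud is centred near 0 with a correlation of -0.0836, and 46.7% of the regions have the same sign in both genotypes.

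The regions named next were taken by their size among those without overlap, so their values are a description. Each had a limma adjusted p of 0.966 unless another is given. The largest difference with T1 higher was 16626 bp from Faxc (chromosome 4, 22017810 to 22018364). Its percentile ranks were 89.4 and 78.2 in MUT T1, 90.9 and 76.4 in WT T1, 47.6 and 41.7 in MUT T2, and 42.4 and 18.0 in WT T2. The means were 83.7 ± 7.46 and 37.5 ± 13.2 (SD, n = 4 each), a difference of 46.3 points with a standard error of 7.93. The lowest T1 library lay 28.8 points above the highest T2 library.

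Stat4 encodes the transcription factor of interleukin-12 signalling. The region inside it (chromosome 1, 52098650 to 52099305) had ranks of 59.2 and 67.7 in MUT T1, 55.3 and 67.2 in WT T1, 29.4 and 25.3 in MUT T2, and 43.4 and 16.2 in WT T2. The means were 62.4 ± 6.11 and 28.6 ± 11.3 (SD, n = 4 each), 33.8 points apart. Inside Lipa, the lysosomal acid lipase gene, the T1 mean was 70.2 ± 3.02 and the T2 mean 38.0 ± 9.34 (SD, n = 4 each). The other 7 of the 10 differed by 32.0 to 37.9 points. They were inside Tbcel, Rmdn2 and Oas1e, a member of the interferon-induced oligoadenylate synthetase family, near Zfp395 and Glyatl3, and at sites on chromosomes 3 and 16 with no coding gene within 50 kb.

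Tead4 encodes a transcription factor of the Hippo pathway. The region 7715 bp from it (chromosome 6, 128308280 to 128308776) had ranks of 83.7 and 89.0 in MUT T2, 94.5 and 94.4 in WT T2, 59.3 and 54.0 in MUT T1, and 60.0 and 35.8 in WT T1. The means were 52.3 ± 11.3 in T1 and 90.4 ± 5.15 in T2 (SD, n = 4 each), and all T2 libraries lay at least 23.7 points above the T1 libraries. The largest difference with T2 higher was -43.1 points, at a site on chromosome 8 with no coding gene within 50 kb. There the T1 ranks ran from 10.97 to 63.1 and the T2 ranks from 85.0 to 93.0. The region near Leprot, which lies beside the leptin receptor gene, had a T1 mean of 21.4 ± 13.7 and a T2 mean of 59.7 ± 19.5 (SD, n = 4 each). The other 7 of the 10 differed by -30.8 to -41.0 points. They were near Fam174a, Slc46a1, a folate transporter gene, and Cmtr2, an mRNA cap methyltransferase gene, inside Pacsin2, Carmil1 and Mgat4c, and at an intergenic site on chromosome 4.

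**Figure D4:**
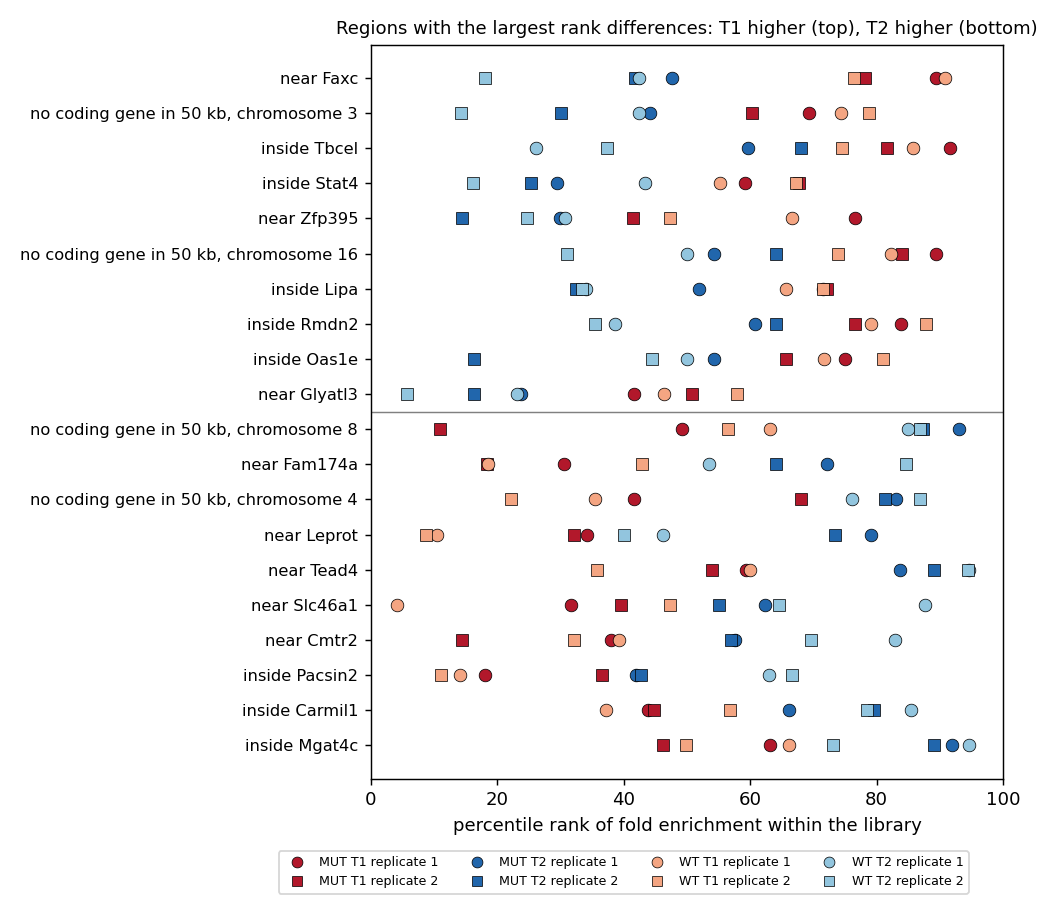
Percentile rank of fold enrichment in each library (horizontal axis, 0 to 100) at the 10 regions with the largest differences in each direction, 1 point per library. T1 points (red and orange) lie to the right of T2 points (dark and light blue) in the upper rows and to the left in the lower rows, as the choice of regions without overlap requires, and points of one population spread widely within a row.

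Bcl11a, the gene of the engineered allele, showed no region within 5 kb of its span that followed the label. Within its span and 5 kb on each side lay 16 regions, and none was called in all libraries of one population and none of the other. The closest was the region on chromosome 11, 24131709 to 24132204, called in 3 T1 and no T2 libraries at fold enrichments of 2.53, 3.33 and 2.90. The 6 regions called in all 8 differed by -7.71 to 6.16 points, and all overlapped between populations. The one at 24111630 to 24112342 had a pooled difference of 0.45 points, made up of 13.6 in MUT and -12.7 in WT (interaction limma adjusted p = 0.680). Peaks at the gene come from fragments aligned there, and the sources used here do not say whether inserted Bcl11a sequence could add to them. Whether a transgene was expressed was not measured.

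Downstream of Bcl11a, 12033 bp from its end (chromosome 11, 24184844 to 24186339), the 4 T2 ranks lay above the 4 T1 ranks. They were 35.9 and 52.6 in MUT T2 and 43.1 and 32.2 in WT T2, against 20.9 and 26.9 in MUT T1 and 16.2 and 20.6 in WT T1. The means were 21.2 ± 4.37 in T1 and 40.9 ± 8.98 in T2 (SD, n = 4 each), a difference of -19.8 points with a standard error of 5.92. The difference was -20.3 points in MUT and -19.2 in WT, and the fold enrichments were 4.99 to 6.25 in T1 and 6.79 to 7.58 in T2. The limma adjusted p was 0.966 (unadjusted 0.00756).

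The Rosa26 locus, a site often used to insert transgenes, was the other locus described for its position. The sources used here do not say where the iMOS allele lies. The region at Gt(ROSA)26Sor and Setd5 (chromosome 6, 113076089 to 113077882) was called in all 8 libraries, with ranks of 16.5 ± 1.72 in T1 and 17.0 ± 4.41 in T2 (SD, n = 4 each). The region at Thumpd3 had 83.6 ± 4.85 and 76.1 ± 6.71 (SD, n = 4 each), and its populations overlapped.

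Among HSC identity genes, 0 of 207 regions called in all 8 libraries passed the test. The groups did not overlap at 3 with T1 higher (1.449%) and 3 with T2 higher (1.449%), beside 1.37% and 1.28% of all regions. The list's median difference was -0.42 points, against -0.05 over all regions. By genotype it was 0.46 in MUT and -0.94 in WT, against 0.24 and -0.33 over all regions. Fgd5 is a marker gene of mouse HSC, and its promoter region (chromosome 6, 91978474 to 91980225) covers the whole Fgd5 window printed above. It had ranks of 13.1 and 11.2 in MUT T1, 11.2 and 7.77 in WT T1, 17.5 and 18.3 in MUT T2, and 17.1 and 16.3 in WT T2. The means were 10.8 ± 2.24 and 17.3 ± 0.854 (SD, n = 4 each). Fold enrichment is divided by the local background, so a rank here is not the height of the peak, and the ratio was 4.30 to 5.72 at this promoter.

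In the list of BCL11A partners and globin genes, 2 of 72 regions (2.778%) lay without overlap with T1 higher and 3 (4.167%) with T2 higher, the one at Bcl11a given above among them, beside 1.37% and 1.28% of all regions. The median difference was -0.42. With genes within 10 kb only, the counts were 2 of 58 (3.448%) and 1 (1.724%), without the region at Bcl11a. Zfpm1, which encodes the GATA1 cofactor FOG1, had ranks of 39.4 ± 3.97 in T1 and 30.0 ± 5.50 in T2 (SD, n = 4 each). HSC aging genes had 0 and 1 of 83 (0% and 1.205%, median 1.08), and the one region lay inside Itgb3, the platelet integrin gene, at 54.5 ± 3.78 and 65.4 ± 4.33. Genes of self-renewal and leukaemia had 0 and 1 of 117 (0% and 0.8547%, median -0.27). That region was inside Foxo3, a factor of HSC quiescence, at 17.9 ± 7.44 and 37.4 ± 12.8 (SD, n = 4 each). Cell cycle and survival genes had 2 and 1 of 91 (2.198% and 1.099%, median -0.80, which was 1.26 in MUT and -2.27 in WT), with Ccnd2, cyclin D2, 11.6 points higher in T1 and Bcl2l1, a survival factor gene, at -13.1 points.

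Lineage genes gave small counts as well, each stated as T1 higher and then T2 higher, to be read beside 1.37% and 1.28% of all regions. T and NK cell genes had 4 and 0 of 81 regions (4.938% and 0%), and a median difference of 1.43 points, the highest of the 16 lists. Megakaryocyte genes had 1 and 3 of 75 (1.333% and 4%, median 0.29), with the region near Gp1bb, a platelet receptor subunit, at 18.9 ± 4.90 and 34.0 ± 8.64. Erythroid genes had 0 and 2 of 55 (0% and 3.636%, median 1.41), with the region near Car2, carbonic anhydrase 2, at 28.8 ± 10.4 and 52.4 ± 8.30 (SD, n = 4 each). With genes within 10 kb only, erythroid genes had 0 and 1 of 46 (0% and 2.174%), without the Car2 region.

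Granulocyte and monocyte genes had 1 and 0 of 55 regions (1.818% and 0%, median -0.25), again beside 1.37% and 1.28% of all regions, the one near Fcgr3 being 3.93 points higher in T1. Mast cell, eosinophil and basophil genes had 1 and 0 of 35 (2.857% and 0%, median 0.01), the one being at a start site of Mitf, at 86.0 ± 4.62 in T1 and 73.9 ± 5.45 in T2 (SD, n = 4 each). B cell genes had 0 and 0 of 89 (median 0.65). Stromal and endothelial genes had 1 and 3 of 88 (1.136% and 3.409%, median -0.96, the lowest of the 16), with Egfl7 9.96 points higher in T1 and Pdgfrb, a receptor of perivascular cells, at -24.3 points.

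Signalling lists had 0 to 2 such regions in each direction, beside 1.37% and 1.28% of all regions. Inflammation and NF-kB genes had 1 and 1 of 77 (1.299% each, median -0.18). The one at the promoter of Tlr2, a receptor for bacterial lipoproteins, was 8.80 points higher in T1, and the one inside Traf1 was at -15.7. AP-1 and immediate early genes had 1 and 1 of 92 (1.087% each, median -0.06), with the region near Ier3 at 25.6 ± 2.04 in T1 and 14.9 ± 1.30 in T2 (SD, n = 4 each) and that near Egr1 at -0.49 points (limma adjusted p = 0.993). TGF-beta and niche signalling genes had 2 and 1 of 149 (1.342% and 0.6711%, median -0.18), with Fzd4, a Wnt receptor gene, 22.8 points higher in T1 (2.86 in MUT and 42.8 in WT) and Smad3 at -2.61. Interferon response genes had 0 and 0 of 44 (median 0.18, which was -2.12 in MUT and 1.70 in WT). In every one of the 16 lists 0 regions passed the limma test, and the smallest adjusted p was 0.966.

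**Figure D5:**
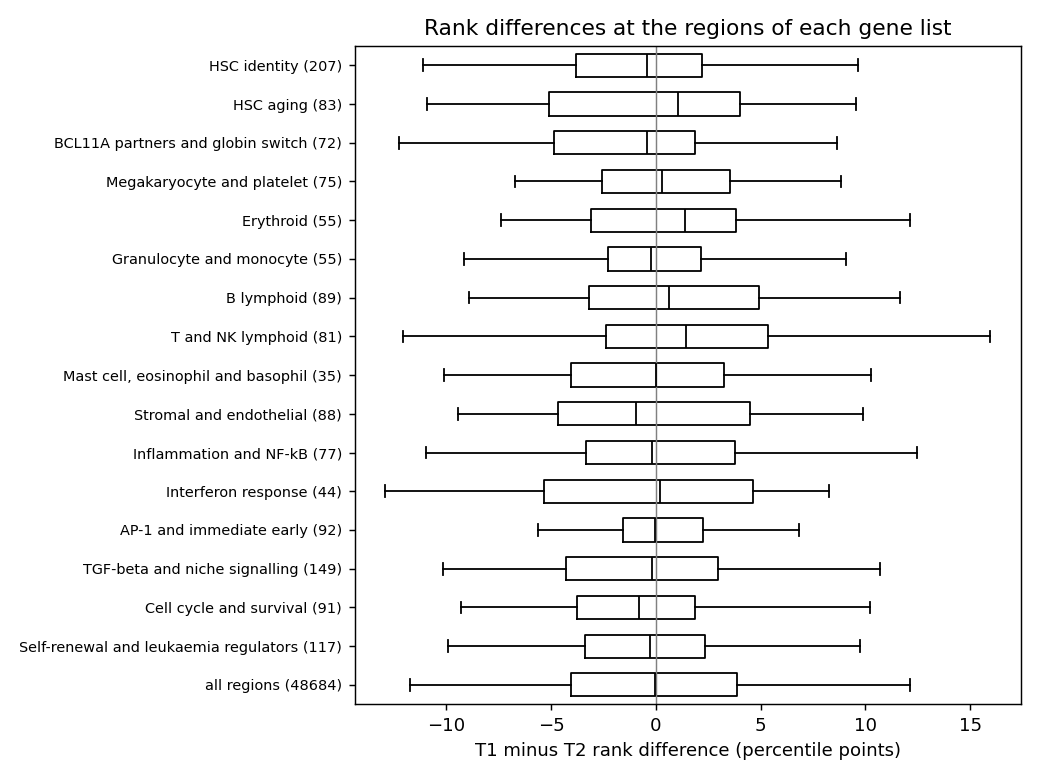
T1 minus T2 difference in percentile rank (points) for the regions of each gene list called in all 8 libraries, with all regions for comparison. Boxes span the quartiles with the median marked, and whiskers reach the 5th and 95th percentiles. List medians lie between -0.96 and 1.43, against -0.05 over all regions.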

How the data were processed

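ATAC-seq peaks were analysed in 8 libraries, 4 T1 and 4 T2. Per the submitters' processing notes, Bowtie2, SAMtools, MACS2 and mm10 were used, and no versions are stated there. The sources used here do not say whether cut positions were shifted. Peaks were called separately in each sample by the authors. A deposited peak carries a summit offset, a score, a fold enrichment, a −log10 p-value and a −log10 q-value. Fold enrichment is the ratio of the summit to local background, with a small constant added to both. The score was not used. The lists carry no read totals. The whole summit pileup and local background were therefore solved from the deposited fold and −log10 p-value, which returned the p-value within 0.001 for at least 99.9972% of peaks per library. The lowest background of a list served as its depth.

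Peaks on chromosomes 1 to 19 were merged at an overlap of 1 bp, and a region took the highest fold enrichment of its peaks in a library. Regions were assigned to RefSeq genes (GRCm38.p6) whose span they fell in or lay within 50 kb of. Of 406 list entries, 404 matched a gene. Ranks were tested with limma 3.58.1 in R 4.3.3 (empirical Bayes with trend, genotype as a term, Benjamini-Hochberg over 48684 regions, threshold 0.05). The test was also run on simulated data. Library summaries were tested with exact two-sided permutation tests over 70 arrangements. Python 3.11.15 with pandas 2.3.3 and SciPy 1.17.1 did the rest.

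Named regions were those with the highest lowest fold enrichment among one-sided regions (10 per side), one-sided regions at listed genes, the 10 largest rank differences per direction among regions passing limma or, failing that, without overlap, the largest such difference per gene list and direction, and regions at Bcl11a and Rosa26. Of these, 2 regions are not reported here. The comparison and the gene lists were chosen with earlier results of these data known. Alternatives were other region definitions, thresholds, scales, covariates and libraries left out.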

Additional observations from a re-analysis of the deposited data

Results flagged for a closer look

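Among 118 groups of 4 libraries tested for a value far from the other 3 (Dixon's test), 8 were flagged, and chance flags about 1 group in 20. The genome background of MUT T1 replicate 2 was 2.035 fragments per position, far below the other 3 T1 libraries. At the T2-only region near Spock2, WT T2 replicate 2 had a fold enrichment of 6.909, above the other 3 T2 libraries. At Lipa the percentile rank of WT T1 replicate 1 was 65.71, below the other T1 libraries, and that of MUT T2 replicate 1 was 51.92, above the other T2 libraries. At Zfpm1 MUT T2 replicate 1 ranked at 21.8, below the other T2 libraries. WT T2 replicate 2 ranked at 89.07 near Fcgr3 and at 28.32 inside Ccnd2, below the other T2 libraries in both. At Tlr2 WT T2 replicate 1 ranked at 68.19, above the other T2 libraries.

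The genotypes took opposite sides at 157 regions called on the T2 side in MUT and on the T1 side in WT, and at 10 regions with the reverse pattern. The T2 side in MUT (1541 regions) and the T1 side in WT (3453) were the larger sides. Each belonged to the population with the higher mean background, and the part of depth was not tested. These differences between genotypes were not tested region by region.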

How the results depend on the processing

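No region passed limma's adjusted threshold under any setting run, with an unadjusted p under 0.05 at 1857 to 4495 regions when 1 library was left out (4495 without MUT T1 replicate 2) and at 3703 without the 2 shallowest libraries, a setting chosen after seeing the data. For the interaction, leaving out 1 library gave 2584 to 6536 regions (6536 without MUT T1 replicate 1) and again 0 past the threshold. Same-numbered libraries of a genotype deviated with correlations of 0.0736 (MUT) and 0.0579 (WT), below the 0.1 set for taking the numbers as pairs, and whether T1 and T2 libraries shared animals is unknown. With the replicate block, 0 regions passed for T1 against T2 (2369 at an unadjusted p under 0.05) and 0 for the interaction (3682). With genome background as a depth term, 0 passed for T1 against T2 (2895 at an unadjusted p under 0.05, 5.95%). For the interaction 0 passed as well (2674, 5.49%).

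Counts of T1-only and T2-only regions were 104 and 103 without MUT T1 replicate 1, 306 and 47 without MUT T1 replicate 2, 200 and 46 without MUT T2 replicate 1, 138 and 53 without MUT T2 replicate 2, 106 and 51 without WT T1 replicate 1, 103 and 68 without WT T1 replicate 2, 97 and 75 without WT T2 replicate 1, and 71 and 99 without WT T2 replicate 2. Each such setting asks for fewer calls or fewer absences. Without the 2 shallowest libraries they were 373 and 161, and with summit windows the T2-only count was 49. Regions without overlap of the ranks numbered 1173 to 1847 (T1 higher) and 1097 to 1986 (T2 higher) with 1 library left out, and 2734 and 2767 without the 2 shallowest. Over the gene lists, counting a region once per list, such regions numbered 39 with genes within 50 kb and 34 within 10 kb.

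The T1 minus T2 difference in peak number ran from -489.7 to 3870 and that in the share of peaks near gene ends from -1.041 to 0.0689 percentage points, and both changed sign only without WT T2 replicate 2. That in the share of distal peaks ran from -0.0121 to 0.2975, with -0.0026 without MUT T1 replicate 1 and -0.0121 without WT T2 replicate 2. The cause was not tested. Equal peak numbers give no value for peak number, and genome background was recomputed only with libraries left out. All 533 recomputed rank differences of 41 named regions kept their direction, which the choice of regions without overlap favours. Depth limits what absence means: at genome background a peak needed 10 to 13 fragments.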
